A study of Schizosaccharomyces pombe with 12 samples.

Results

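The genes described here are ribosome biogenesis genes of fission yeast, Schizosaccharomyces pombe, taken by name: every feature whose standard gene name is nop, utp, rrp, nog or imp followed directly by digits, with the importin gene imp1 left out. The rule gave 58 of the 5483 features measured, 22 named rrp, 20 utp, 11 nop, 3 imp and 2 nog, and it used no measured value. The data are 12 tiling arrays of total RNA from growing cultures, 3 biological replicates for each of 4 strains. The strains were dcr1Δ (SPB81), which lacks the Dicer gene dcr1, dcr1ΔC33 (SPB287) and dcr1-SHSS (SPB776), which carry altered dcr1 alleles, and the wild-type (SPB80). The labels give only the names of the alleles. From general knowledge, dcr1ΔC33 is a C-terminal truncation of Dicer and dcr1-SHSS alters residues that bind zinc near the same end of the protein. The comparisons ask how far the RNA levels of each mutant depart from wild-type and from one another. Each genotype is a single strain, so a difference between genotypes cannot be told apart from another difference between the strains.

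Ribosome biogenesis starts in the nucleolus, where RNA polymerase I makes the long precursor of the ribosomal RNAs. Small nucleolar ribonucleoproteins (snoRNPs) guide modifications of that precursor, the small-subunit processome, a large assembly around the U3 snoRNP, folds and cuts the part that becomes the small subunit, a further set of GTPases, helicases and binding proteins builds the large subunit, and the RNA exosome trims and degrades the by-products. The genes for these factors are known to be expressed together, high in fast growth and lower under stress. Many of the roles given below are known from the budding yeast proteins of the same name.

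Of the 58 genes, 3 belong to the cores of snoRNPs, 30 to the small-subunit processome and its cofactors (6 in the UtpA subcomplex, 4 in UtpB, 3 in the U3 snoRNP and Mpp10 complex, and 17 others), 14 to large-subunit assembly and 8 to the exosome. The name did not match the function for the other 3. The genes rrp1 and rrp2 of fission yeast encode DNA translocases of the Snf2 family known from DNA repair, and imp2 encodes a membrane-binding protein of the cytokinetic ring. Without them the count of 27 below is 25, and the other counts of genes past the threshold in the main fit, which has no block, are the same. Counts of other kinds, such as changes below 0 or arrays without overlap, include these 3 genes. With the array number as a block, described below, the counts lower without rrp1, rrp2 and imp2 against wild-type were 32 in dcr1-SHSS, 24 in dcr1ΔC33 and 0 in dcr1Δ, and 12 in dcr1ΔC33 and 36 in dcr1-SHSS against dcr1Δ. The shares of all features lower with the block were, in the same order, 30.9, 22.9, 0.821, 8.04 and 23.7 percent. The genes lay on chromosomes I (26), II (25) and III (7). In the reference annotation (assembly ASM294v3) 22 of them overlapped another protein-coding gene, and 6 did so over at least 20 percent of their length. With non-coding genes counted too, 53 of the 58 overlapped another annotated gene and 5 overlapped none. Because the target was labelled as double-stranded DNA, both strands of a locus contribute to a value, and values of overlapping genes are uncertain.

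Values are log2 levels as deposited, 1 per feature and array, and changes are differences of these levels with their moderated standard error (SE) from limma, a linear model fitted across all features, with n = 3 arrays per strain. A gene is said to have fallen or risen where its limma p, adjusted by the Benjamini-Hochberg method over all 5483 features, was under 0.05. Array medians lay between 11.37 and 11.42. The targeted gene dcr1 lay at 5.52, 5.80 and 5.37 on the dcr1Δ arrays, against 10.49, 10.57 and 10.60 on the wild-type arrays, and between 10.64 and 10.89 on the arrays of dcr1ΔC33 and dcr1-SHSS. Mean levels of the biogenesis genes in wild-type spanned 8.32 to 13.77, which is not an order of abundance since probes differ, and 11 of the 58 lay in the lowest 20 percent of features by mean level. The median SD of a gene over the 3 arrays of a strain was 0.0794 in dcr1Δ, 0.0767 in dcr1ΔC33, 0.0790 in dcr1-SHSS and 0.0812 in wild-type, and the median SE of a change was 0.068. In RNA from whole cultures a change in some cells and a smaller change in all cells cannot be told apart.

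In dcr1-SHSS, 27 of the 58 genes fell against wild-type and 0 rose. In dcr1ΔC33, 14 fell and 0 rose, and in dcr1Δ 0 fell and 0 rose. These shares stand beside a broad background of small decreases. In dcr1-SHSS 25.8 percent of all features fell and 15.0 percent rose, 40.7 percent together, beside 46.6 percent and 0 percent of the biogenesis genes. In dcr1ΔC33 17.6 percent of all features fell and 14.7 percent rose, 32.3 percent together, and 24.1 percent of the biogenesis genes fell. In dcr1Δ 0.328 percent of all features fell and 2.81 percent rose, 3.14 percent together. With the array number as a block, 25 of the 58 genes fell and 1 rose in dcr1ΔC33, beside 22.9 and 18.4 percent of all features. With the same block 34 fell and 0 rose in dcr1-SHSS, beside 30.9 and 17.5 percent of all features. In dcr1Δ 1 fell and 1 rose with the block, beside 0.821 and 4.56 percent of all features. All decreases were small: 0 of the 58 genes moved by 1.5-fold or more past the threshold in any comparison, and the largest, nop56 in dcr1-SHSS, was 1.37-fold.

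**Figure D1:**
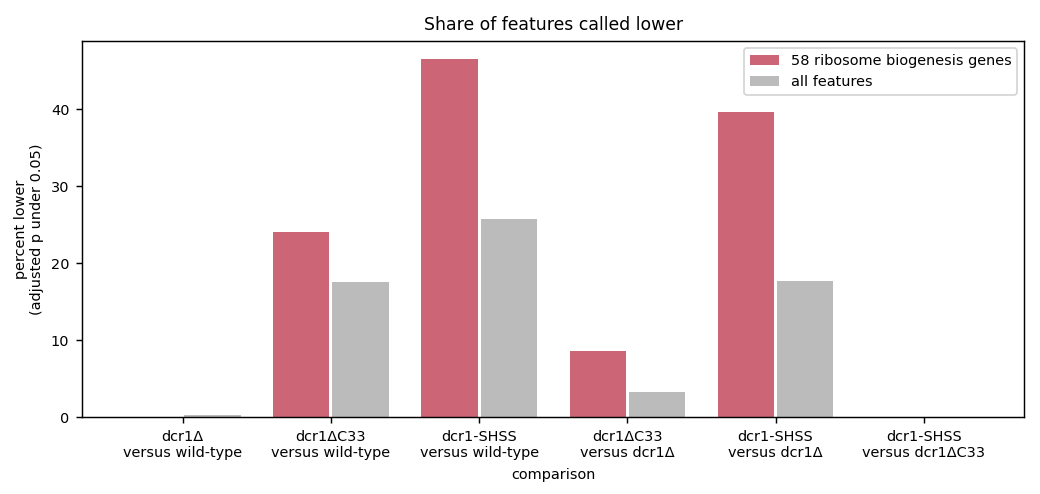
Percent of features with a limma adjusted p under 0.05 and a lower level, for the 58 ribosome biogenesis genes (red) and for all 5483 features (grey), in each of the 6 comparisons of the main fit, without a block. The biogenesis genes reach 46.6 percent in dcr1-SHSS versus wild-type, beside 25.8 percent of all features, and stand at 0 in dcr1Δ versus wild-type and in dcr1-SHSS versus dcr1ΔC33.

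The median log2 change was -0.160 in dcr1-SHSS, -0.089 in dcr1ΔC33 and 0.009 in dcr1Δ, beside medians over all features of -0.057, -0.027 and 0.000. In dcr1-SHSS 53 of the 58 genes had a change below 0, and the lower and upper quartiles of the 58 changes were -0.243 and -0.102. In dcr1ΔC33 45 were below 0, and in dcr1Δ 26 were. All 3 arrays of dcr1-SHSS lay below all 3 wild-type arrays for 31 genes and above for 0, where 32.6 and 17.8 percent of all features separated in these directions. For dcr1ΔC33 the numbers were 23 below and 1 above (28.8 and 20.6 percent of all features), and for dcr1Δ 4 below and 3 above (9.45 and 11.6 percent).

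**Figure D2:**
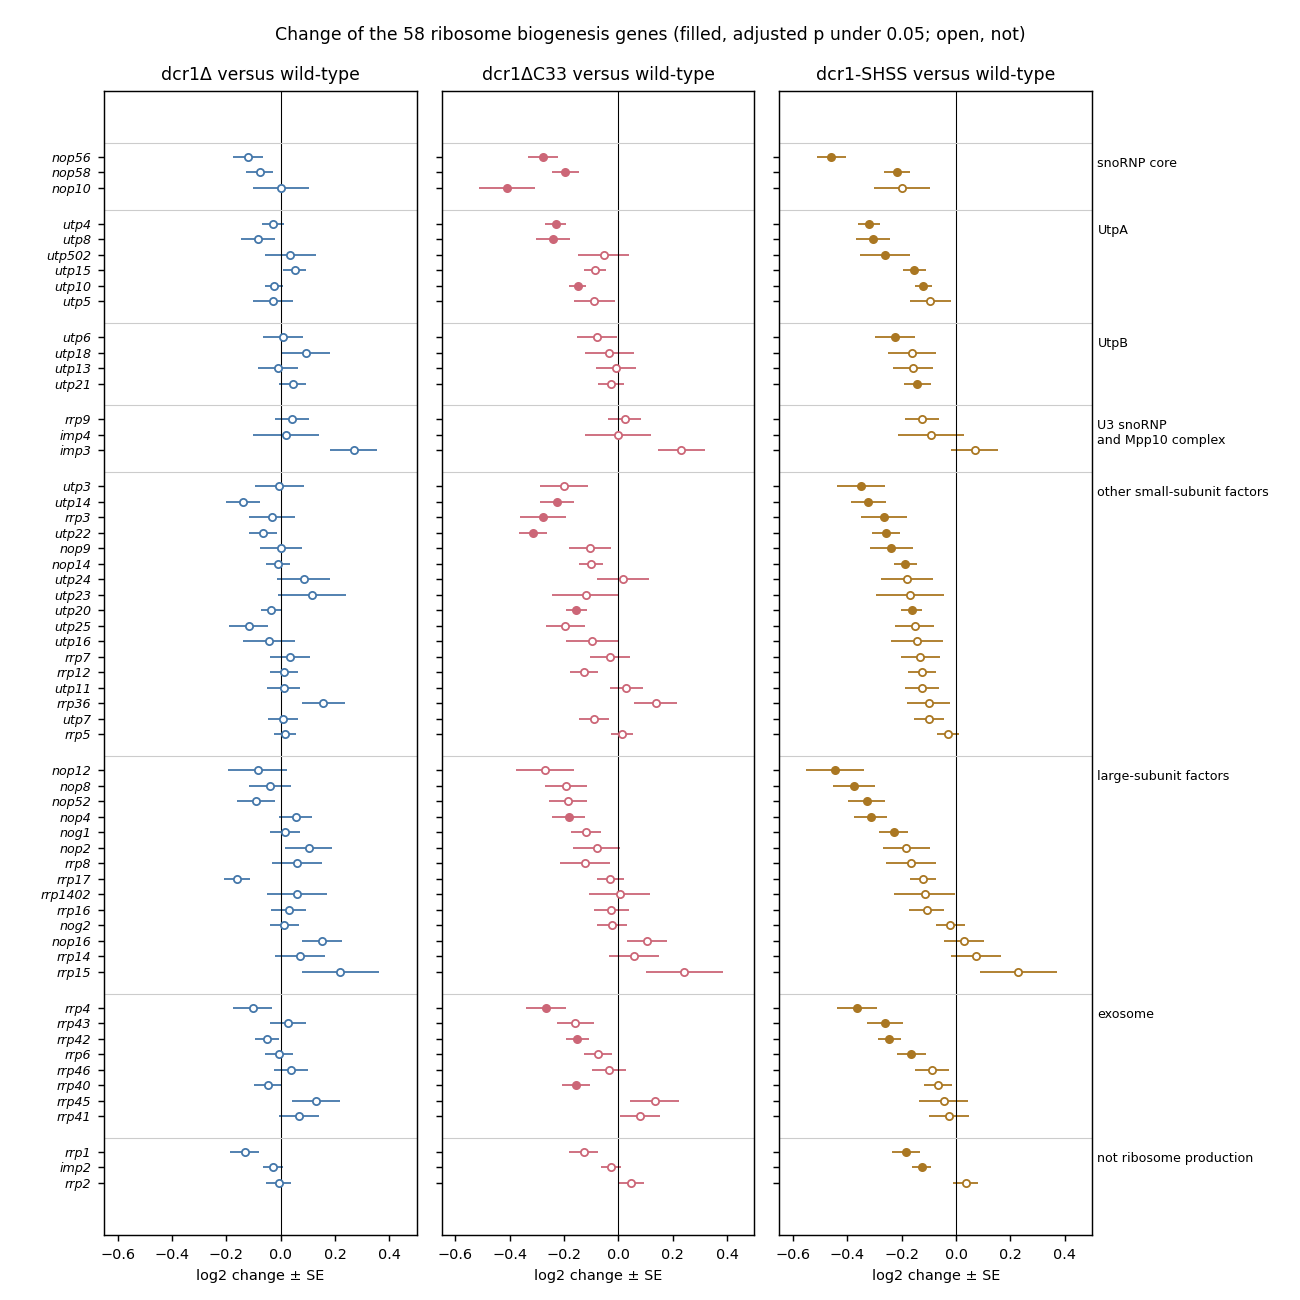
Log2 change against wild-type of each of the 58 genes, grouped by role from top to bottom, in dcr1Δ (left), dcr1ΔC33 (middle) and dcr1-SHSS (right). Points are limma estimates of the main fit, without a block, bars their SE, and filled points have an adjusted p under 0.05. The left panel has 0 filled points, the middle panel 14 and the right panel 27, and all of them lie left of 0.

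The 14 genes that fell in dcr1ΔC33 in the main fit, which has no term for the array number, were nop4, nop10, nop56, nop58, rrp3, rrp4, rrp40, rrp42, utp4, utp8, utp10, utp14, utp20 and utp22. The comparisons of both alleles used the same wild-type arrays, so their values are given side by side, gene by gene. A gene that passed in 1 allele and not in the other is not thereby shown to differ between them. Set against each other, dcr1-SHSS and dcr1ΔC33 differed past the threshold at 0 of the 58 genes by limma, 8 of which had an unadjusted p under 0.05, and at 0.146 percent of all features (0.0912 percent lower and 0.0547 percent higher). The median difference of the 58 genes between these alleles was -0.091, beside -0.024 over all features, with 49 of 58 below 0. All dcr1-SHSS arrays lay below all dcr1ΔC33 arrays for 11 genes and above for 2, beside 16.0 and 8.52 percent of all features.

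All 3 snoRNP core genes fell in dcr1ΔC33, and nop56 and nop58 fell in dcr1-SHSS, beside 17.6 and 25.8 percent of all features. The gene nop56 encodes a core protein of the box C/D snoRNPs, which guide ribose methylation. It lay at 12.08, 11.96 and 12.06 in dcr1-SHSS and at 12.23, 12.20 and 12.21 in dcr1ΔC33, against 12.54, 12.46 and 12.47 in wild-type. The arrays of both alleles lay below every wild-type array. The decrease was -0.46 ± 0.05 (SE, adjusted p = 0.000176) in dcr1-SHSS and -0.28 ± 0.05 (adjusted p = 0.00398) in dcr1ΔC33. On the dcr1Δ arrays nop56 lay at 12.44, 12.43 and 12.24, also below every wild-type array, but the difference of -0.12 ± 0.05 did not pass (adjusted p = 0.276). Its partner nop58 fell in dcr1-SHSS by 0.22 and in dcr1ΔC33 by 0.20 on the log2 scale.

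The gene nop10 encodes a small protein of the box H/ACA snoRNPs, which guide pseudouridine formation. It lay at 12.17, 12.39 and 12.21 in dcr1ΔC33, against 12.62, 12.81 and 12.55 in wild-type, and fell by 0.41 on the log2 scale (adjusted p = 0.0133), the largest decrease among the 58 genes in that strain. Its dcr1-SHSS arrays were uneven, at 12.59, 12.23 and 12.57, so that 2 of them overlapped the wild-type range and array 2 lay with dcr1ΔC33. The dcr1-SHSS change of -0.20 ± 0.10 did not pass (adjusted p = 0.147), and the difference between dcr1-SHSS and dcr1ΔC33 was 0.21 (95% interval -0.017 to 0.439). In dcr1Δ it lay at 12.64, 12.73 and 12.62, within the wild-type range.

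The UtpA subcomplex is the part of the processome that binds the nascent precursor first. In it 5 of 6 genes fell in dcr1-SHSS and 3 in dcr1ΔC33, beside 25.8 and 17.6 percent of all features. The UtpA medians were -0.207 and -0.119. The gene utp4 lay at 12.50, 12.45 and 12.46 in dcr1-SHSS and at 12.63, 12.52 and 12.53 in dcr1ΔC33, against 12.77, 12.79 and 12.81 in wild-type. The groups did not overlap, and the decreases were -0.32 ± 0.04 (adjusted p = 0.000227) and -0.23 ± 0.04 (adjusted p = 0.00207). In dcr1Δ utp4 lay at 12.80, 12.78 and 12.71 (change -0.03 ± 0.04). The gene utp8 fell by 0.31 in dcr1-SHSS and 0.24 in dcr1ΔC33, and utp10 by 0.12 and 0.15. The genes utp15 and utp502 fell in dcr1-SHSS (-0.15 ± 0.04 and -0.26 ± 0.09), and utp5 did not pass in any strain. With wild-type array 1 or dcr1ΔC33 array 2 or 3 left out, utp8 no longer passed in dcr1ΔC33 (adjusted p at most 0.0572), at changes of -0.24 to -0.21. In dcr1-SHSS utp10 no longer passed with wild-type array 3 left out (-0.11, adjusted p = 0.0505), with median centring or in a fit of the 2 strains alone (at most 0.0726), and utp502 did not with any 1 wild-type array or dcr1-SHSS array 2 or 3 left out (at most 0.164), at changes of -0.30 to -0.18.

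Of the 4 genes of the UtpB subcomplex, which joins next, utp6 (-0.22 ± 0.07) and utp21 (-0.14 ± 0.05) fell in dcr1-SHSS, and 0 of 4 passed in dcr1ΔC33. The shares of all features that fell were 25.8 and 17.6 percent. The UtpB median was -0.030 in dcr1ΔC33, beside -0.160 in dcr1-SHSS. With wild-type array 1 or dcr1-SHSS array 2 or 3 removed, neither gene passed (adjusted p at most 0.114 for utp6 and 0.131 for utp21), and utp21 also failed with wild-type array 2 removed or the arrays centred on their medians. In the fits with 1 array removed where these calls were lost, the changes were -0.22 to -0.17 for utp6 and -0.13 to -0.11 for utp21.

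In the U3 snoRNP and Mpp10 complex, at the heart of the processome, 0 of 3 genes passed in any mutant. The gene imp3, which encodes a component of that complex, had the highest change of the 58 genes in dcr1Δ. It lay at 12.29, 12.15 and 12.08 in dcr1Δ, at 12.18, 12.09 and 12.13 in dcr1ΔC33 and at 12.08, 11.85 and 11.97 in dcr1-SHSS, against 12.09, 11.80 and 11.81 in wild-type. Wild-type array 1 lay well above the other 2 wild-type arrays and among the dcr1Δ arrays. The differences were 0.27 ± 0.09 in dcr1Δ (adjusted p = 0.140), 0.23 ± 0.09 in dcr1ΔC33 (adjusted p = 0.0628) and 0.07 ± 0.09 in dcr1-SHSS (adjusted p = 0.553). With the array number as a block, imp3 rose in dcr1Δ (adjusted p = 0.0224) and in dcr1ΔC33 (0.00809), and without wild-type array 1 it also rose in both (0.0375 and 0.0129). In dcr1ΔC33 it further passed with quantile normalization (0.0476) and with an intensity trend and robust moderation (0.0498). The genes imp4 and rrp9 had changes between -0.13 and 0.04 against wild-type in the 3 mutants.

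Of the 17 other small-subunit factors, 7 fell in dcr1-SHSS and 4 in dcr1ΔC33, beside 25.8 and 17.6 percent of all features. In dcr1-SHSS all 17 changes were below 0. The gene utp22 encodes a protein of the UtpC subcomplex. It lay at 12.44, 12.33 and 12.47 in dcr1-SHSS and at 12.43, 12.30 and 12.35 in dcr1ΔC33, against 12.66, 12.73 and 12.63 in wild-type. Neither allele overlapped wild-type, and the decreases were -0.26 ± 0.05 (adjusted p = 0.00325) and -0.32 ± 0.05 (adjusted p = 0.00147). The gene rrp7, whose product is a partner of Utp22, did not pass, but its span lies wholly within the annotated span of pmh1. The scaffold gene utp20 fell by 0.16 in dcr1-SHSS and 0.15 in dcr1ΔC33, utp14, whose product activates a helicase of the processome, by 0.32 and 0.23, and the helicase gene rrp3 by 0.26 and 0.28. In dcr1-SHSS utp3 (-0.35 ± 0.09), nop9 (-0.24 ± 0.08) and nop14 (-0.19 ± 0.04), all of which encode processome or pre-ribosome binding proteins, also fell.

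With the array number as a block, 9 of the 17 fell in dcr1ΔC33, with nop9, nop14, rrp12, utp3 and utp25 in addition, beside 22.9 percent of all features. With the same block 11 of the 17 fell in dcr1-SHSS, beside 30.9 percent of all features. Some calls of the fit without the block were lost with 1 array removed, at changes of similar or somewhat smaller size. In dcr1ΔC33 utp14 did not pass once wild-type array 1 or 3 or dcr1ΔC33 array 2 or 3 was removed (changes of -0.22 to -0.17, adjusted p at most 0.0787), and rrp3 did not once any 1 wild-type array or dcr1ΔC33 array 2 or 3 was removed (-0.30 to -0.21, at most 0.109). The same held for utp20 and dcr1ΔC33 array 1 (-0.14, adjusted p = 0.0552). In dcr1-SHSS rrp3 did not pass after removal of wild-type array 1 or dcr1-SHSS array 2 (-0.22 to -0.18, at most 0.112), nor nop9 after removal of either of these or dcr1-SHSS array 3 (-0.24 to -0.16, at most 0.118).

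Large-subunit factors showed the widest range of changes in dcr1-SHSS, from -0.44 to 0.23. There 5 of 14 fell, beside 25.8 percent of all features. In dcr1ΔC33 1 fell, nop4, a share below the 17.6 percent of all features. With the array number as a block 5 did, nop4, nop8, nop12, nop52 and nog1, beside 22.9 percent of all features. With the same block 7 of the 14 fell in dcr1-SHSS, beside 30.9 percent of all features. The gene nop12 encodes an RNA-binding protein of large-subunit processing. It lay at 9.44, 9.43 and 9.54 in dcr1-SHSS and at 9.88, 9.55 and 9.51 in dcr1ΔC33, against 10.09, 9.86 and 9.80 in wild-type. Array 1 of dcr1ΔC33 lay within the wild-type range, and the other 2 lay near dcr1-SHSS. The decrease in dcr1-SHSS was -0.44 ± 0.11 (adjusted p = 0.00889), and the dcr1ΔC33 difference of -0.27 ± 0.11 did not pass without the block (adjusted p = 0.0765) and passed with it (0.0319).

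The RNA-binding protein gene nop4 fell in both alleles. It lay at 10.87, 10.72 and 10.77 in dcr1-SHSS and at 11.03, 10.85 and 10.87 in dcr1ΔC33, against 11.18, 11.06 and 11.06 in wild-type. The decreases were -0.31 ± 0.06 (adjusted p = 0.00262) and -0.18 ± 0.06 (adjusted p = 0.0393). The call in dcr1ΔC33 failed after removal of any 1 wild-type array or of dcr1ΔC33 array 2 or 3 (-0.20 to -0.14, adjusted p at most 0.124). The genes nop8 (-0.38 ± 0.08) and nop52 (-0.33 ± 0.07), both among the dim features, and the GTPase gene nog1 (-0.23 ± 0.05) fell in dcr1-SHSS. The related GTPase gene nog2 did not pass in any strain, with changes of -0.02 ± 0.05 in dcr1-SHSS, -0.02 ± 0.05 in dcr1ΔC33 and 0.01 ± 0.05 in dcr1Δ. The gene rrp15 lay above wild-type by 0.23 in dcr1-SHSS, 0.24 in dcr1ΔC33 and 0.22 in dcr1Δ, but no change passed. Its arrays lay at 10.79, 10.26 and 10.86 in dcr1-SHSS, against 10.51, 10.19 and 10.51 in wild-type. Array 2 was the low one in both strains. Without dcr1-SHSS array 2 rrp15 rose in dcr1-SHSS (adjusted p = 0.0101).

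Of the 8 exosome genes, 4 fell in dcr1-SHSS and 3 in dcr1ΔC33, beside 25.8 and 17.6 percent of all features. The gene rrp4 encodes a cap subunit. It lay at 11.20, 11.29 and 11.24 in dcr1-SHSS and at 11.37, 11.40 and 11.25 in dcr1ΔC33, against 11.75, 11.52 and 11.55 in wild-type. The decreases were -0.36 ± 0.07 (adjusted p = 0.00344) and -0.27 ± 0.07 (adjusted p = 0.0194), and the call in dcr1ΔC33 failed after removal of wild-type array 1 or dcr1ΔC33 array 3 (-0.22 to -0.19, at most 0.0753). The ring subunit gene rrp43 fell in dcr1-SHSS (-0.26 ± 0.07), and in dcr1ΔC33 with the array number as a block (adjusted p = 0.0376). The gene rrp42, of the same ring, fell in dcr1-SHSS (-0.24 ± 0.04) and in dcr1ΔC33 (-0.15 ± 0.04, or -0.15 to -0.14 with adjusted p at most 0.0655 after removal of wild-type array 1 or 2 or dcr1ΔC33 array 1 or 3). The span of rrp42 overlaps those of bag101 and top3, which both fell too, by 0.18 and 0.38 in dcr1-SHSS and by 0.24 and 0.23 in dcr1ΔC33, and the part of shared signal was not tested.

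The nuclear exonuclease gene rrp6, whose product in fission yeast also degrades meiotic and heterochromatic transcripts, lay at 9.23, 9.11 and 9.27 in dcr1-SHSS, against 9.44, 9.27 and 9.38 in wild-type. The highest dcr1-SHSS array lay just under the lowest wild-type array. The decrease of -0.16 ± 0.05 (adjusted p = 0.0286) no longer passed with wild-type array 1 or 3 or dcr1-SHSS array 2 left out, nor with an intensity trend (at most 0.102), and without those arrays the changes were -0.16 to -0.12. In dcr1ΔC33 the cap subunit gene rrp40 fell by 0.16 (adjusted p = 0.0400), a call that failed after removal of each of the 6 arrays in turn (-0.17 to -0.13, at most 0.121). The genes rrp41, rrp45 and rrp46 passed in no strain.

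Of the 3 genes whose products act elsewhere, rrp1 (-0.18 ± 0.05) and imp2 (-0.13 ± 0.04) fell in dcr1-SHSS, and rrp2 had a change of 0.04 ± 0.05. The span of rrp2 is overlapped over 90.7 percent by that of nta1, which rose in dcr1-SHSS by 0.30 on the log2 scale. With wild-type array 1 or 2 or dcr1-SHSS array 3 removed rrp1 did not pass (-0.18 to -0.14, adjusted p at most 0.0693). It fell in dcr1ΔC33 with the array number as a block (adjusted p = 0.00804). With wild-type array 3 or dcr1-SHSS array 2 removed imp2 did not pass (-0.12 to -0.10, at most 0.0612), nor did it with quantile normalization or median centring (at most 0.106).

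**Figure D3:**
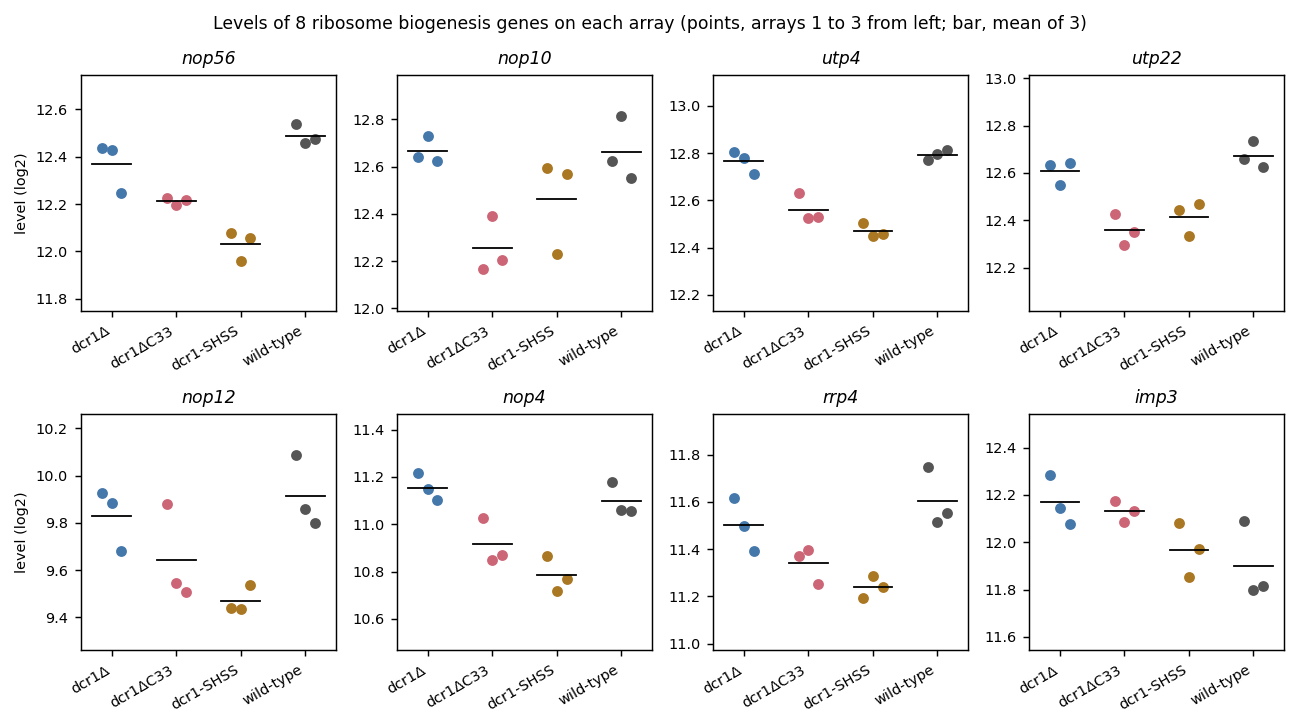
Log2 level of 8 ribosome biogenesis genes on each of the 12 arrays (points, arrays 1 to 3 from left to right within a strain; bars, mean of 3), each panel spanning 1 log2 unit. For nop56, utp4, utp22, nop4 and rrp4 the points of dcr1ΔC33 and dcr1-SHSS lie below all wild-type points, whereas for imp3 the 3 dcr1ΔC33 points lie no more than 0.01 below the highest wild-type point.

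Against wild-type, 0 of the 58 genes passed in dcr1Δ by limma, and 3 had an unadjusted p under 0.05. The changes ran from -0.16 at rrp17 to 0.27 at imp3, and the 95% intervals of all 58 lay between -0.323 and 0.535. The exonuclease gene rrp17 lay at 12.43, 12.43 and 12.39 in dcr1Δ, against 12.63, 12.60 and 12.51 in wild-type, without overlap, and its difference of -0.16 ± 0.05 had adjusted p = 0.116. With the array number as a block, imp3 rose and rrp1 fell (-0.13 ± 0.05 without the block; adjusted p with it 0.0336).

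The difference between the altered alleles and the deletion was tested directly. Against dcr1Δ, 23 of the 58 genes fell in dcr1-SHSS and 0 rose, where 17.7 percent of all features fell and 8.85 percent rose (26.6 percent together). In dcr1ΔC33 5 fell and 0 rose, where 3.28 percent of all features fell and 4.61 percent rose (7.9 percent together). All arrays lay below all dcr1Δ arrays for 38 genes in dcr1-SHSS and 16 in dcr1ΔC33, beside 29.2 and 20.5 percent of all features, and above for 0 and 1, beside 14.0 and 13.5 percent. The 5 genes were nop10, utp22, nop4, utp4 and utp10. Both comparisons used the same dcr1Δ arrays. The medians were -0.176 and -0.088, beside -0.052 and -0.025 over all features. The lowest change in dcr1-SHSS against dcr1Δ was that of nop4, which lay at 10.87, 10.72 and 10.77 in dcr1-SHSS, against 11.21, 11.15 and 11.10 in dcr1Δ (-0.37 ± 0.06, adjusted p = 0.00288). Next to it came nop12 (-0.36 ± 0.11), utp3 (-0.34 ± 0.09), nop56 (-0.34 ± 0.05) and nop8 (-0.34 ± 0.08). The methyltransferase gene nop2 (-0.29 ± 0.09) and rrp36 (-0.26 ± 0.08), which encodes a small-subunit processing factor, passed here and not against wild-type in the main fit. In dcr1-SHSS against wild-type nop2 passed with the array number as a block (adjusted p = 0.0148) and rrp36 with quantile normalization (0.0394). Against dcr1Δ nop2 passed under 8 of 12 alternatives. The gene rrp36, the lowest of the 58 by mean level in each strain, passed under 5 of 11. The span of nop2 is overlapped over 61.2 percent by that of spt16, which did not pass.

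These counts changed with the arrays kept. Without array 1 of dcr1Δ 6 genes fell in dcr1-SHSS against dcr1Δ and 0 in dcr1ΔC33, at medians of -0.147 and -0.050. In that refit 8.21 and 0.419 percent of all features fell, at medians of -0.047 and -0.022, so the count of 6 was close to the share of all features. Without dcr1-SHSS array 2 the count of 23 became 9, and without dcr1-SHSS array 3 or dcr1Δ array 2 it became 13 or 14. The shares of all features that fell were then 11.1, 11.5 and 9.89 percent. Without dcr1Δ array 2 or dcr1ΔC33 array 1, 2 or 3 the count of 5 became 1, 3, 1 or 0, beside 0.802, 0.948, 1.26 or 0.474 percent of all features. With the array number as a block the counts were 37 and 12, beside 23.7 and 8.04 percent of all features. The genes nop4, nop56, utp4, utp15 and nog1 fell in dcr1-SHSS against dcr1Δ under all 12 alternatives run, whereas 0 of the 5 genes of dcr1ΔC33 did.

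Array 1 was the highest of its strain for most biogenesis genes in all 4 strains. Of the 58 genes, 46 were highest on array 1 of dcr1Δ, 45 on array 1 of dcr1ΔC33, 31 on array 1 of dcr1-SHSS and 42 on array 1 of wild-type, where 37.2, 33.2, 33.1 and 37.7 percent of all features were highest on that array. The median difference of the 58 genes from their wild-type means was 0.072, -0.033 and -0.030 on the dcr1Δ arrays, -0.004, -0.133 and -0.107 on the dcr1ΔC33 arrays, -0.128, -0.228 and -0.137 on the dcr1-SHSS arrays, and 0.076, -0.060 and -0.011 on the wild-type arrays. The 3 dcr1-SHSS arrays lay below every wild-type array, and array 1 of dcr1ΔC33 lay above wild-type arrays 2 and 3. Medians over all features lay at -0.05, -0.06 and -0.05 on the dcr1-SHSS arrays and from -0.031 to 0.014 on the others. The labels do not say what the array number stands for.

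**Figure D4:**
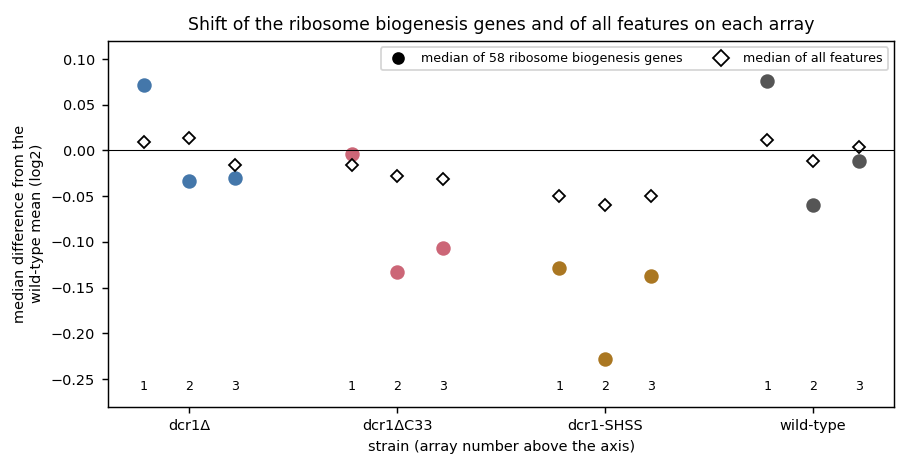
Median difference from the wild-type mean, in log2 units, of the 58 ribosome biogenesis genes (filled circles) and of all features (open diamonds) on each of the 12 arrays, by strain and array number. Array 1 is the highest of its strain for the biogenesis genes in all 4 strains, at 0.072, -0.004, -0.128 and 0.076 from left to right.

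The direction of the differences was the same at each array number in dcr1-SHSS and dcr1ΔC33. Between arrays of the same number, the median of the 58 genes in dcr1-SHSS minus wild-type was -0.178, -0.181 and -0.134. The median over all features was -0.061, -0.044 and -0.054. Of the 58 genes 55, 49 and 48 were below 0, and 42 were below 0 in all 3. For dcr1ΔC33 minus wild-type the median of the 58 genes was -0.098, -0.110 and -0.091, beside -0.027, -0.012 and -0.031 over all features. There 45, 42 and 44 genes were below 0, and 32 were below 0 in all 3. For dcr1Δ minus wild-type the median of the 58 genes was -0.004, 0.017 and -0.017, with 30, 26 and 33 below 0. Over all features it lay between -0.02 and 0.032. Shares of all features below 0 were not counted. With the array number as a block, 25 genes fell and 1 rose, imp3, in dcr1ΔC33 against wild-type, and all 14 calls of the fit without the block were among them. With that block 22.9 percent of all features fell and 18.4 percent rose. Without the block the count of 14 became 7 without wild-type array 1, 9 without dcr1ΔC33 array 2 and 7 without dcr1ΔC33 array 3. In these refits 13.6, 12.2 and 10.5 percent of all features fell. Without wild-type array 1 the share of the 58 genes lay below that of all features. The genes nop10, nop56, nop58, utp4, utp10 and utp22 fell in dcr1ΔC33 under every alternative run. In dcr1-SHSS 18 of the 27 genes did so, and the count ran from 20 to 28 with single arrays left out, beside 18.6 to 23.6 percent of all features. In a fit of the 2 compared strains alone, 11 of the 14 calls in dcr1ΔC33 passed (not nop4, utp14 and utp20), and 21 of the 27 in dcr1-SHSS (not imp2, nop9, rrp6, utp10, utp21 and utp502). There 14.2 and 18.9 percent of all features fell.

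Other genes of ribosome production were taken from lists beside the 58, and their counts are read against the 25.8 percent of all features that fell in dcr1-SHSS and the 17.6 percent in dcr1ΔC33. Of 15 genes of RNA polymerase I and its initiation factors, 8 fell in dcr1-SHSS (53.3 percent) and 4 in dcr1ΔC33 (26.7 percent). The gene of the largest subunit, nuc1, fell by 0.33 in dcr1-SHSS and 0.24 in dcr1ΔC33, and rpc40, a subunit gene shared with RNA polymerase III, by 0.23 and 0.28. Of 7 further snoRNP protein genes 4 fell in each allele (57.1 percent). Among them were naf1, which encodes an assembly factor of H/ACA snoRNPs (-0.29 ± 0.07 in dcr1-SHSS and -0.30 ± 0.07 in dcr1ΔC33), and gar1, which encodes one of their core proteins (-0.23 ± 0.04 and -0.20 ± 0.04).

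Of 38 further small-subunit factors 14 fell in dcr1-SHSS (36.8 percent), and 6 in dcr1ΔC33 (15.8 percent), a share below that of all features. The helicase gene dbp8 had the lowest change in dcr1-SHSS (-0.46 ± 0.12). Of 52 further large-subunit factors 27 fell in dcr1-SHSS (51.9 percent) and 15 in dcr1ΔC33 (28.8 percent). The gene las1, whose product cuts the spacer between the large-subunit RNAs, fell most in dcr1-SHSS (-0.50 ± 0.12), and noc3 in dcr1ΔC33 (-0.34 ± 0.06). The 2 that rose, both in dcr1ΔC33, were mak16 (0.26 ± 0.09) and nsa2 (0.20 ± 0.06). They were named after their values were seen. Of 13 further exosome subunits and cofactors 5 fell in each allele (38.5 percent) and 1 rose, the ring subunit gene mtr3 in dcr1ΔC33 (0.26 ± 0.07). The gene air1, of the polyadenylation complex that feeds the exosome, fell most, by 0.51 in dcr1-SHSS and 0.38 in dcr1ΔC33.

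The median changes of these 5 lists, in the order given, were -0.205, -0.211, -0.142, -0.163 and -0.123 in dcr1-SHSS, beside -0.057 over all features, and -0.126, -0.113, -0.083, -0.113 and -0.036 in dcr1ΔC33, beside -0.027. In dcr1Δ 0 genes of the 5 lists passed in either direction by limma. Calls in these lists were not refitted with single arrays left out.

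Core environmental stress genes, which many kinds of stress induce, rose in part in all 3 mutants. Of 29 listed, 27 were measured. Of these 27, 21 rose in dcr1-SHSS (77.8 percent, beside 15.0 percent of all features). In dcr1ΔC33 17 rose (63.0 percent, beside 14.7), in dcr1Δ 6 rose (22.2 percent, beside 2.81), and 0 fell in any mutant. Their median changes in these strains were 0.577, 0.434 and 0.193. The cation pump gene cta3 changed most, by 4.31 ± 0.15 in dcr1-SHSS, 4.09 ± 0.15 in dcr1ΔC33 and 2.78 ± 0.15 in dcr1Δ. The part of these genes' response in the levels of the biogenesis genes was not tested.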

How the data were processed

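Total RNA of 12 cultures was hybridised to tiling arrays after double-stranded target labelling, per the labels' protocols. The deposited values are log2 levels per annotated feature, summarised by the authors with R 2.10.0 and affy, per the submitters' processing notes; no normalization, annotation or build was found in the sources used here. Centring is known only from the array medians. No detection calls were used.

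Of 5483 feature IDs 5357 matched a gene of assembly ASM294v3, and all 58 genes of the rule had a feature. The levels were fitted as deposited in limma 3.58.1 under R 4.3.3 with 4 groups over 12 arrays (8 residual and 2.443 prior degrees of freedom). Tests were 2-sided and p-values were adjusted over all features by the Benjamini-Hochberg method. The fit was tested on simulated data for dcr1ΔC33 against wild-type. The simulated noise was independent and held no effect of the array number, so that effect was not tested there. Genes named are those past the threshold in any comparison and, in groups without one, the gene with the smallest p; in further lists, up to 3 with the largest change per list and mutant. Genes outside this rule (rrp15, nog2, rrp17, rrp7, imp4, rrp9, utp5, rrp41, rrp45, rrp46, rrp2, rrp12 and utp25) were chosen after their values were seen. Roles were assigned from general knowledge. The genes and lists were chosen with earlier results of these data known.

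The main fit did not pair the arrays. A check counted same-numbered arrays as paired where each of the 3 correlations of their deviations from group means exceeded 0.1. In the comparisons with wild-type these were 0.151, 0.354 and 0.252 for dcr1Δ, 0.178, 0.388 and 0.223 for dcr1ΔC33, and 0.0931, 0.284 and 0.266 for dcr1-SHSS. Against dcr1Δ they were 0.184, 0.300 and 0.131 for dcr1ΔC33 and 0.178, 0.437 and 0.266 for dcr1-SHSS. Between dcr1-SHSS and dcr1ΔC33 they were 0.0206, 0.351 and 0.139. Comparisons of dcr1-SHSS with wild-type and with dcr1ΔC33 thus missed the cut, at lowest values of 0.0931 and 0.0206. The others passed. The array number is a single factor shared by all strains, so it cannot pair some comparisons and leave others unpaired. The check therefore cannot decide pairing for each comparison, and it held no reference from arrays of different numbers. Array 1 was the highest for most biogenesis genes in every strain, and the main fit has no term for that. Counts with the array number as a block are given beside those of the main fit, also for dcr1-SHSS against wild-type. Refits used quantile normalization, centring on array medians, features above the lowest 20 percent by mean level, the compared strains alone, an intensity trend with robust moderation, the array number as a block, or all arrays but 1.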

Additional observations from a re-analysis of the deposited data

How the results depend on the processing

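With the array number as a replicate block, 1 gene rose and 1 fell in dcr1Δ against wild-type, 1 rose and 25 fell in dcr1ΔC33 against wild-type, and 12 and 37 fell in dcr1ΔC33 and dcr1-SHSS against dcr1Δ. In dcr1-SHSS against wild-type, where the arrays missed the cut of the pairing check, 34 fell. The shares of all features that fell were, in the same order, 0.821, 22.9, 8.04, 23.7 and 30.9 percent, and 4.56 and 18.4 percent rose in dcr1Δ and dcr1ΔC33 against wild-type. Quantile normalization gave 1 higher and 23 lower in dcr1ΔC33 against wild-type, beside 12.6 and 21.4 percent of all features. The intensity trend gave 1 higher there, beside 14.9 percent. Fitting the compared strains alone left 2 lower in dcr1ΔC33 and 15 in dcr1-SHSS against dcr1Δ, beside 1.39 and 10.3 percent of all features. With 1 array left out, genes higher ran from 0 to 1 in each mutant against wild-type, and genes lower from 7 to 15 in dcr1ΔC33 and 20 to 28 in dcr1-SHSS against wild-type, and from 0 to 7 in dcr1ΔC33 and 6 to 19 in dcr1-SHSS against dcr1Δ. The shares of all features that fell ran, in the same order, from 10.5 to 13.9, 18.6 to 23.6, 0.419 to 3.79 and 8.21 to 17.9 percent. The cause of these shifts was not tested. Leaving out rrp1, rrp2 and imp2, an alternative chosen after seeing the data, left 25 of 27 lower in dcr1-SHSS. In dcr1-SHSS against dcr1ΔC33 0 genes passed under any alternative. Precision is limited by 3 arrays per strain.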
